A study of Mus musculus with 7 samples.

Results

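The deep intragenic H3K27me3 regions are stretches of chromosomes 1 to 19 that lay under H3K27me3 peaks of both replicates, were at least 500 bp long, and lay wholly inside a protein-coding gene and more than 10 kb from every end of a protein-coding gene. There were 5141 of them among the 23378 H3K27me3 regions of at least 500 bp common to both libraries (22.0%), and together they covered 8.61 Mb. They lay in 1331 genes, which is 14.3% of the 9292 protein-coding genes long enough to hold such a region. Replicate 1 alone gave 12541 such regions in 2847 genes and replicate 2 alone 9852 in 2296, so both counts rest on the requirement of both libraries. They also rest on weak peaks, with 1582 regions left at peaks with a −log10 q (the authors' significance) of 2 or more and 67 with 5 or more. The regions were chosen by their H3K27me3 peaks, so their number, length and H3K27me3 enrichment are given as a description. H3K27ac, the internal transcript starts and the CpG content of those starts were not used in the choice.

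The series profiled 2 histone modifications in globose basal cells (GBCs), the dividing progenitors of the olfactory epithelium, by chromatin immunoprecipitation and sequencing (ChIP-seq). H3K27me3 had 2 libraries, H3K27ac had 2, and 3 input libraries had no peak list used here. All came from adult wild-type mice given methimazole, a compound toxic to the olfactory epithelium, and killed 7 to 10 days later while the tissue regrew, and no unlesioned animals were analysed. Each replicate was a pool of cells from 3 mice, and GBCs were taken from the suspension with magnetic beads and an antibody to the receptor c-Kit, which mast cells and melanocytes also bear. Of the listed GBC and progenitor genes 7 were long enough to enter this account, and all 7 (Kit, Lgr5, Pax6, Lhx2, Ebf1, Ebf2 and Ebf3) had H3K27ac of both libraries at a gene end. So did 72.4% of the 9292 genes long enough, among them listed genes of other cell types (Hydin and Dnah5 of cilia, Itgb4 of horizontal basal cells and Notch2 of sustentacular cells), so this count does not mark GBCs. The leukocyte gene Ptprc and the mast cell gene Cpa3 had neither mark at their ends, while Csf1r of macrophages, Hdc of mast cells and Mitf of melanocytes had H3K27ac there. On chromosomes 1 to 19 the H3K27me3 lists held 93104 and 63826 peaks (replicates 1 and 2) and the H3K27ac lists 76790 and 63503. Read depth is unknown, so a region without a peak is a region without a call at this depth.

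H3K27me3 is written by Polycomb repressive complex 2 and is best known from CpG-rich promoters of developmental genes that a cell keeps silent. Inside a long gene it can lie at an internal promoter, from which a shorter transcript starts, or spread through the gene body as a broad domain. H3K27ac sits on the same lysine and marks active promoters and enhancers, so a given histone tail cannot carry both there. Peaks from a pool of cells do not show whether both marks lay on the same chromosome copies, and cells that carry a mark and the amount of mark per cell cannot be told apart.

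At the internal transcript starts under these regions, CpG dinucleotides were more numerous by median with both marks than with H3K27me3 without H3K27ac. The medians were 21 and 8 per 300-base window. As examples only, the 250 bases upstream of 7 such starts are printed with every CG in capitals. The sequences come from RefSeq on GRCm38.p6 and run 5′ to 3′ on the strand of the gene. The first 4 starts lay under H3K27me3 and H3K27ac of both libraries, and the last 3 under H3K27me3 without bases common to both H3K27ac libraries. They lie at chr7:49245939-49246188 (plus strand, Nav2), chr11:81152904-81153153 (minus, Asic2), chr2:105682213-105682462 (plus, Pax6), chr4:135152295-135152544 (plus, Runx3), chr6:113891540-113891789 (minus, Atp2b2), chr17:8849735-8849984 (plus, Pde10a) and chr4:154097174-154097423 (minus, Trp73). Nav2, Asic2, Atp2b2 and Pde10a were taken by the rank of their genes, and Pax6, Runx3 and Trp73 were chosen after their values were seen. The classes overlap more than these examples do. Among starts without H3K27ac, those of Kcnip1 held 4 and 16 CpG per 300-base window and one in Phf24 held 56. A start with both marks in Nacc2 held 4.
Nav2, both marks: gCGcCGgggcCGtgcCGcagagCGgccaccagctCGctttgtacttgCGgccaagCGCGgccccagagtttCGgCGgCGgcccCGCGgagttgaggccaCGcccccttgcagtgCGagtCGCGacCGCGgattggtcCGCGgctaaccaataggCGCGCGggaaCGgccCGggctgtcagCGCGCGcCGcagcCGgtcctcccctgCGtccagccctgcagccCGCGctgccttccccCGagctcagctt
Asic2, both marks: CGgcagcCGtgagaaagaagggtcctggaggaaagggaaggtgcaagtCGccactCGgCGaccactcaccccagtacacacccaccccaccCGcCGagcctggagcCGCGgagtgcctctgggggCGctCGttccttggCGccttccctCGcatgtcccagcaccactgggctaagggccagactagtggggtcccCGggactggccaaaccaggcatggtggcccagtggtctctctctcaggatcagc
Pax6, both marks: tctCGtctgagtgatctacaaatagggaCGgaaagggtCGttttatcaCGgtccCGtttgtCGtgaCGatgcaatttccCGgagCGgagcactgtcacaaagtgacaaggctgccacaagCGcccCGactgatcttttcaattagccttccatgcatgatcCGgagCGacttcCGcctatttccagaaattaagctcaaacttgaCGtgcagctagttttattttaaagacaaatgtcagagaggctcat
Runx3, both marks: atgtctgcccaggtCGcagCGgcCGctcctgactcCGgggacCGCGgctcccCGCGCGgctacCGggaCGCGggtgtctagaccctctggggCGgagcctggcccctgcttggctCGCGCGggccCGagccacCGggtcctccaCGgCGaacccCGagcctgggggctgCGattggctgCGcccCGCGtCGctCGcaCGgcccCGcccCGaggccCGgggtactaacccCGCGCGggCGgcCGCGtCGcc
Atp2b2, H3K27me3 without H3K27ac: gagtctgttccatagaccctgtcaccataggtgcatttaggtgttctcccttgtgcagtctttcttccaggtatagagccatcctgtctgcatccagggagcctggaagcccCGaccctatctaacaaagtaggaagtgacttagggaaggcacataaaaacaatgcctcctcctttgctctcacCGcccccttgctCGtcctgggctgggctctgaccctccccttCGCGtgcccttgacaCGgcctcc
Pde10a, H3K27me3 without H3K27ac: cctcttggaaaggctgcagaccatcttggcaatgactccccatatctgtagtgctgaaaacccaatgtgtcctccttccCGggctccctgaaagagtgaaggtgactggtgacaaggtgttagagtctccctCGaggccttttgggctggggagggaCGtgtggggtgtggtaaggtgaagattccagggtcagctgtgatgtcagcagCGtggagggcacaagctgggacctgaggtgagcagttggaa
Trp73, H3K27me3 without H3K27ac: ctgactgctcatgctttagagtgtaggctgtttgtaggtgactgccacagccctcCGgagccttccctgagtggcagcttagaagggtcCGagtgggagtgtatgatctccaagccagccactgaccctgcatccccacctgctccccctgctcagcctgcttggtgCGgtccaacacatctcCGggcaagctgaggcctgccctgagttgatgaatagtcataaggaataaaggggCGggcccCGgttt

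These 7 windows held 36 CpG in Nav2, 14 in Asic2, 15 in Pax6 and 38 in Runx3, against 6 in Atp2b2, 4 in Pde10a and 6 in Trp73. Asic2 and Pax6 thus stood nearer to the last 3 windows than Nav2 and Runx3 did. The starts belong to genes of different roles. Nav2 is a neuron navigator protein of axon growth, Asic2 an acid-sensing ion channel, and Pax6 and Runx3 are transcription factors of the nose, eye and brain and of T cells and sensory neurons. Atp2b2 is a calcium pump of the plasma membrane, Pde10a breaks down cyclic nucleotides, and Trp73 is a relative of p53 known for an internal promoter.

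Most deep intragenic regions were short and weakly enriched. Their median length was 1114 bp, with the middle of the distribution at 760 to 1897 bp and a maximum of 24162 bp, and 213 regions (4.14%) reached 5000 bp. The fold enrichment that the authors deposited for the peaks, taken as the highest of the peaks over a region, had a median of 3.73 in replicate 1 and 3.33 in replicate 2. A peak can reach past its region, and several regions can share a peak. Few regions lay far above these medians, since the highest decile began at 5.0 and 4.16. A −log10 q of 5 was reached by 8.01% of regions in replicate 1 and 1.65% in replicate 2. Both replicates ranked the regions only in part alike, with a Spearman correlation of fold enrichment of 0.505 across the 5141 regions, which share their libraries and peak lists. Longer regions had higher fold, with correlations of 0.379 and 0.360, and over a longer region the highest of more peaks was taken. Regions just inside the length limit (500 to 549 bp, 253 regions) had median folds of 3.51 and 3.17, against 3.53 and 3.16 for the 271 regions of 450 to 499 bp just outside it. Regions 10 to 11 kb from a gene end (187) had 3.77 and 3.35, against 3.83 and 3.31 for the 225 at 9 to 10 kb.

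The deep regions gathered in a small number of long genes. The 126 genes with 10 or more regions held 2356 (45.8%), and the 24 highest-ranked genes held 865 (16.8%), while 630 host genes had 1 region each. Several of the genes at the top of this ranking act in neurons. Csmd2, a large membrane protein with CUB and sushi domains, led with 75 regions that covered 104 kb, and Rbfox3, the splicing regulator known as the neuronal marker NeuN, followed with 60 regions over 200 kb. Among receptors and channels were the kainate receptor subunit genes Grik4 (33 regions) and Grik3 (28), the GABA receptor gene Gabbr2 (27), Asic2 (34) and the potassium channel partner Kcnip1 (27). The cadherins Cdh4 (35), Cdh23 (28) and Cdh13 (28) are adhesion proteins. Transcriptional regulators were Camta1 (52), Prdm16 (44), Zfp469 (30), Cux2 (29) and Pax5 (26), and Celf4 (29), like Rbfox3, binds RNA. Genes of other tissues stood beside them, such as Myo18b (38), a myosin of muscle, Skap1 (33), an adaptor of T cells, and Pax5, a regulator of B cells. The remaining genes of the 24 were Sorcs2 (42), a sorting receptor of neurons, Atp2b2 (41), Nav2 (36), Pde10a (33), Phactr3 (31), a regulator of phosphatase and actin, and Xkr6 (26).

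**Figure D1:**
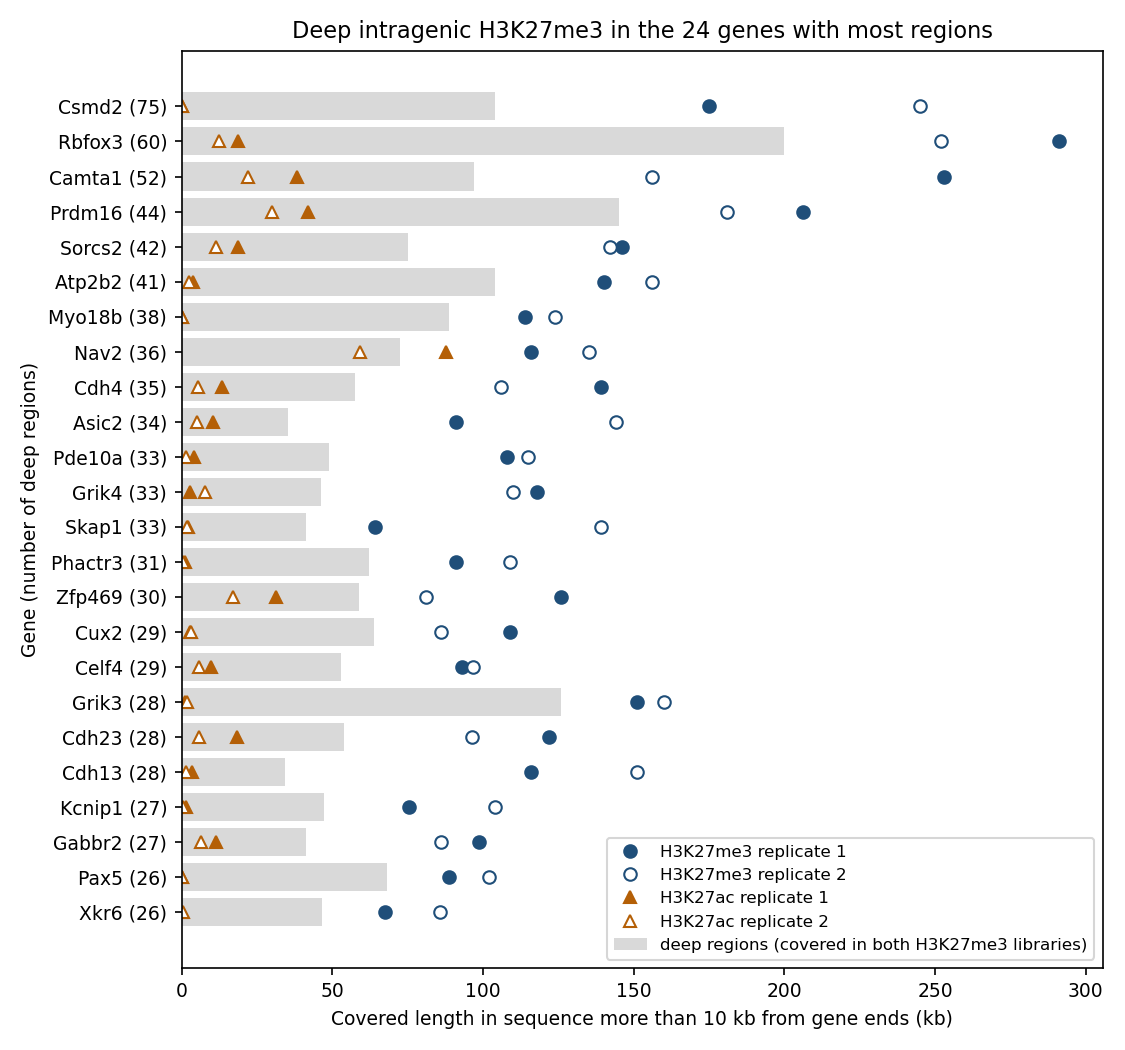
Length covered by each library in sequence more than 10 kb from gene ends (x axis, kb) for the 24 genes with most deep regions (y axis, number of regions in parentheses); grey bars give the length of the deep regions, circles the H3K27me3 libraries and triangles the H3K27ac libraries. The genes were ranked by H3K27me3, which lay to the right of H3K27ac in both libraries of every gene shown, and Rbfox3, Prdm16 and Grik3 had the longest bars, at 200, 145 and 126 kb.

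In each of these 24 genes both H3K27me3 libraries covered more of the deep sequence than either H3K27ac library did. The genes were ranked by their H3K27me3 regions, so this order follows largely from the choice and is given as a description. In Csmd2 the H3K27me3 libraries covered 175 and 245 kb, against 0 and 0.190 kb for H3K27ac. In Myo18b they covered 114 and 124 kb, against 0.142 and 0 kb. In Pax5 they covered 88.6 and 102 kb, against 0.214 and 0 kb. These genes were almost free of H3K27ac calls away from their ends. Nav2 had the most H3K27ac of the 24, with 116 and 135 kb under H3K27me3 against 87.7 and 59.3 kb under H3K27ac. Prdm16, a zinc finger regulator of brown fat and of stem cells, had 206 and 181 kb under H3K27me3, against 41.8 and 29.9 kb under H3K27ac. In Camta1, a calmodulin-binding transcription activator, the figures were 253 and 156 kb against 38.3 and 22.0 kb. By ratio the H3K27me3 replicates differed most in Skap1, with 64.2 and 139 kb, and this gene kept 41.4 kb in its deep regions. As there were 2 libraries for each mark, the smallest exact permutation p for any comparison of the marks is 0.333, and no such difference could pass 0.05.

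Some genes were covered over much of their deep sequence. In Grik3 the 28 regions took up 61.8% of the sequence more than 10 kb from a gene end, in Rbfox3 49.9% and in Prdm16 48.2%, against a median of 19.9% over the 24 genes. Among genes with at least 5 regions the densest after Grik3 were Cdh22 (61.5%), a cadherin of the brain, Lmx1b (57.6%), a homeobox regulator of limb and midbrain, Trp73 (57.3%), Cfap46 (56.5%), a protein of cilia, and Sez6 (56.3%), a membrane protein of synapses. In Lmx1b 3 of the 6 regions were also under H3K27ac of both libraries, whereas Cfap46 had no H3K27ac in its deep sequence. Over all 9292 genes long enough, the regions took up 1.23% of the 702 Mb of deep sequence.

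**Figure D2:**
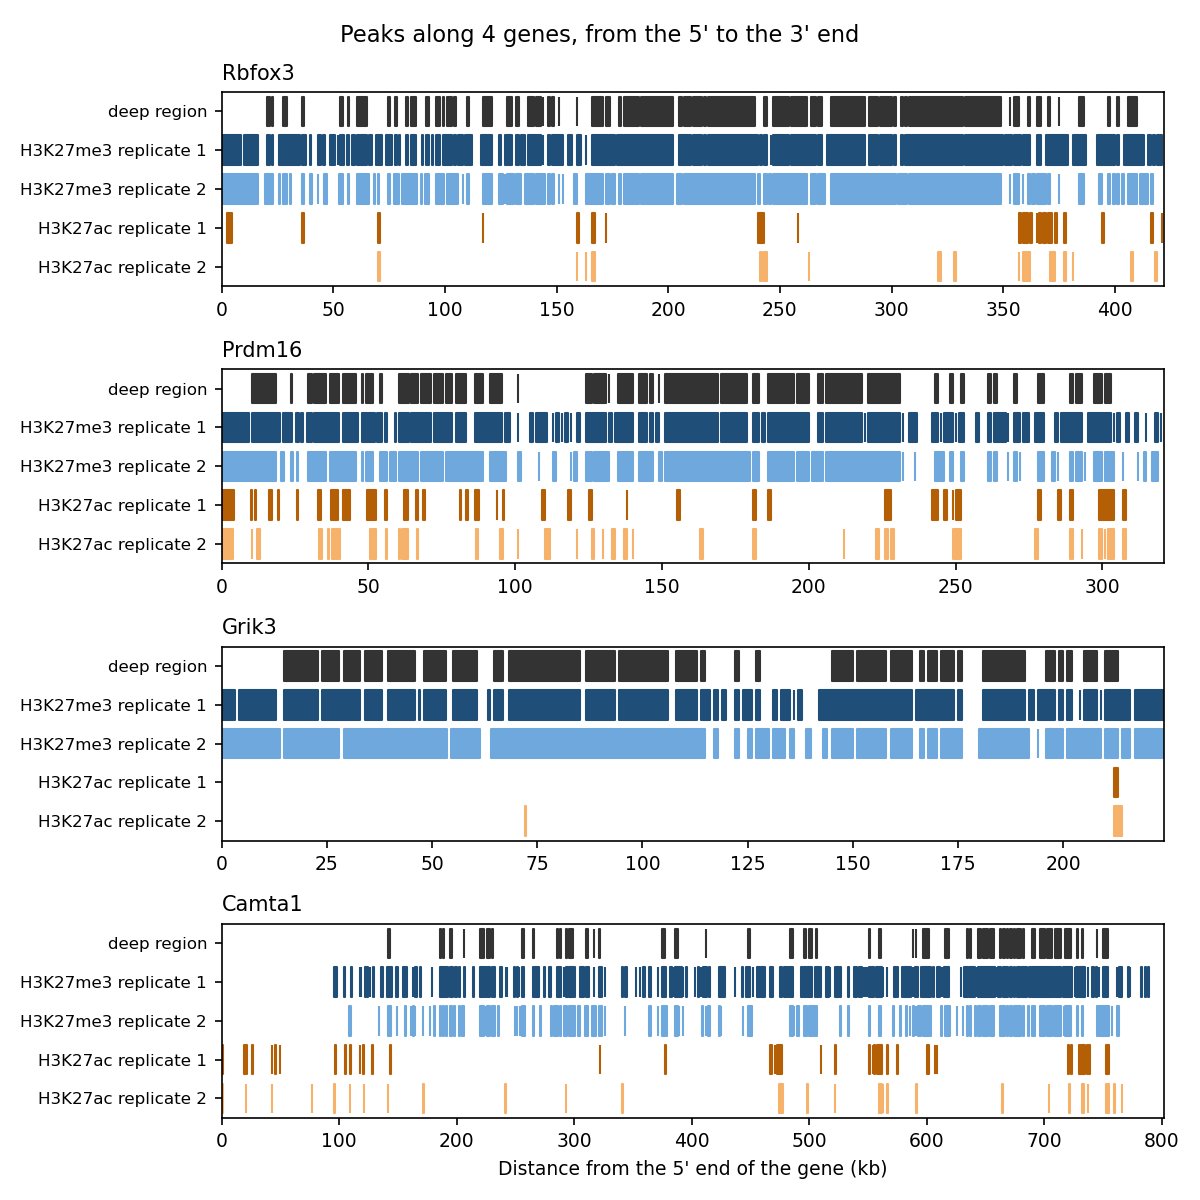
Peaks of the 4 libraries and the deep regions along Rbfox3, Prdm16, Grik3 and Camta1, with distance from the 5′ end of the gene on the x axis (kb) and a row for each list. H3K27me3 of both replicates filled most of Grik3 and the middle of Rbfox3 and Prdm16, while in Camta1 it began well inside the gene and H3K27ac lay at the 5′ end.

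The longest unbroken regions lay in genes of the same kinds. Rbfox3 held the longest pair, 24162 bp at chr11:118579586-118603747 and 21316 bp at chr11:118672267-118693582, with fold enrichments of 4.89 and 4.69 in the longer and 5.63 and 4.56 in the shorter. Next came Nrxn2, a presynaptic adhesion gene, with 18539 bp (fold 5.68 and 4.15), Prdm16 with 18187 bp (4.47 and 4.20) and Pax5 with 18071 bp (4.57 and 3.97). Runx3 had 17705 bp (9.60 and 7.10), Grik3 17072 bp (5.02 and 4.57) and Trp73 15702 bp (4.41 and 3.54). Of these 8 regions, those of Nrxn2 and Runx3 also held bases under H3K27ac of both libraries, over 3778 bp and 1850 bp. The regions of Prdm16 and Trp73 had H3K27ac peaks of each library that did not meet (fold 3.69 and 2.98 in Prdm16, 2.80 and 2.79 in Trp73). The regions of Runx3 and Trp73 held an internal start of their gene. Nrxn2 has no entry among the RefSeq starts used here, so an internal start could not be seen in it.

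The most enriched regions lay in other genes. Skor2, a transcriptional corepressor of cerebellar Purkinje cells, had the highest fold in both libraries, 18.7 and 11.3, over 2699 bp at chr18:76858539-76861237. A region of 1131 bp in the imprinted gene Zdbf2 (chr1:63272902-63274032) stood at 16.7 and 9.80, and it held an internal start of that gene, with 38 CpG in its 300-base window and no H3K27ac peak. The heart and endoderm regulator Gata4 had 3 regions among the 6 best, at 13.6 and 9.80 for the one of 2622 bp and at 13.1 and 7.84 for the neighbouring pair of 4716 and 1268 bp. Rbm20, a splicing factor of heart muscle, had 13.6 and 7.47. Of these 6 regions only that in Rbm20 was overlapped by H3K27ac of both libraries, over 294 of its 2165 bp. Gene ends here are the outermost ends in RefSeq, predicted transcripts included, so a start in common use can count as deep.

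Deep regions lay close to each other, and were spread through the gene body. The median gap between neighbouring regions of a gene was 3.94 kb, and 57.2% of the 3826 gaps were under 5 kb. The median distance to the nearest gene end was 33.0 kb, and the largest 906 kb, in Dlg2, a scaffold gene of synapses. In the 1018 host genes whose strand was known, the share of deep sequence in regions was 2.35% in the decile next to the 5′ end, 5.49% in the fifth decile and 1.63% in the decile next to the 3′ end. The outermost deciles are short of regions in part by construction, because a region that crosses the 10 kb limit was not counted. Longer genes were hosts more often, with 9.32% of genes with under 50 kb of deep sequence, 18.0% at 50 to 100 kb, 24% at 100 to 200 kb, 28.2% at 200 to 400 kb and 39.9% above 400 kb. The share of deep sequence in regions was 1.83%, 1.55%, 1.68%, 1.08% and 0.540% in the same classes, so the longest genes were the most thinly covered. Chromosomes differed as well, with 2.31 regions per Mb of deep sequence on chromosome 3, 14.1 on chromosome 4 and 14.3 on chromosome 11.

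**Figure D3:**
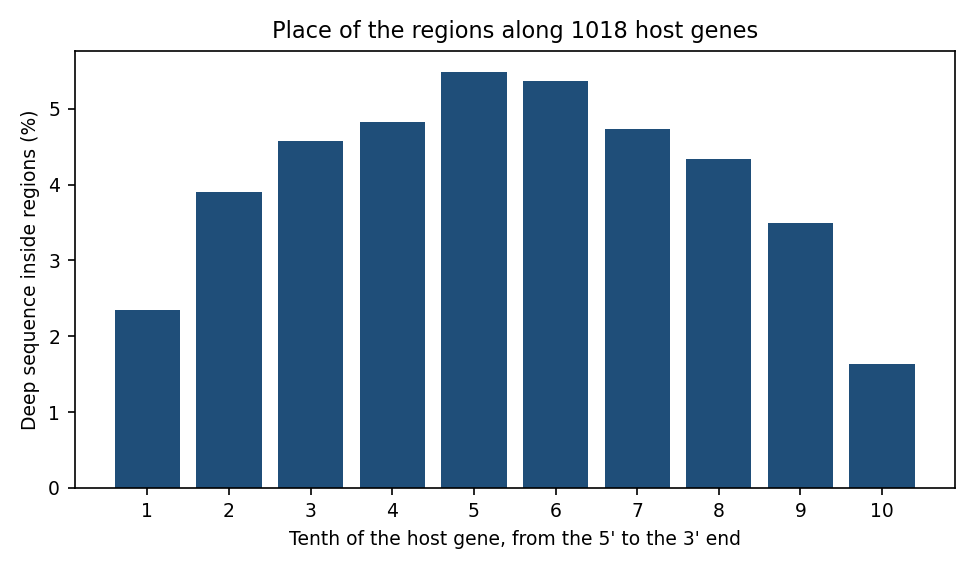
Share of deep sequence that lay in deep H3K27me3 regions (y axis, %) in each decile of the gene from the 5′ to the 3′ end (x axis), over the 1018 host genes with a known strand. The share is highest at 5.49% in the fifth decile, and lowest at the ends, where regions that cross the 10 kb limit are left out.

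H3K27ac, which played no part in the choice, overlapped a minority of the deep regions. H3K27ac peaks touched 1201 regions (23.4%) in replicate 1 and 925 (18.0%) in replicate 2, and bases covered in both libraries lay in 736 (14.3%), against 21.1% of all 23378 H3K27me3 regions. The 10783 H3K27me3 regions within 10 kb of a gene end were overlapped more often, 43.4% and 37.0% in replicates 1 and 2, and the 7454 intergenic ones less often, 14.5% and 11%. Deep regions lay between these classes in each H3K27ac library. The share in both libraries was 8.34% where H3K27ac had to cover at least 50% of the region, and 4.48% of the 67 regions left at a −log10 q of 5 or more in every list. With a single peak list per library, regions are not replicates and this order was not tested. Of the bases of the regions, 7.57% lay under H3K27ac of both libraries in deep regions, 17.1% near gene ends and 3.82% between genes. The classes also differed in length and enrichment, with medians of 1114 bp and 3.73 and 3.33-fold for deep regions, 1427 bp and 4.31 and 3.65-fold near gene ends, and 1084 bp and 3.83 and 3.41-fold between genes, and the part of these differences in the overlap was not tested.

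**Figure D4:**
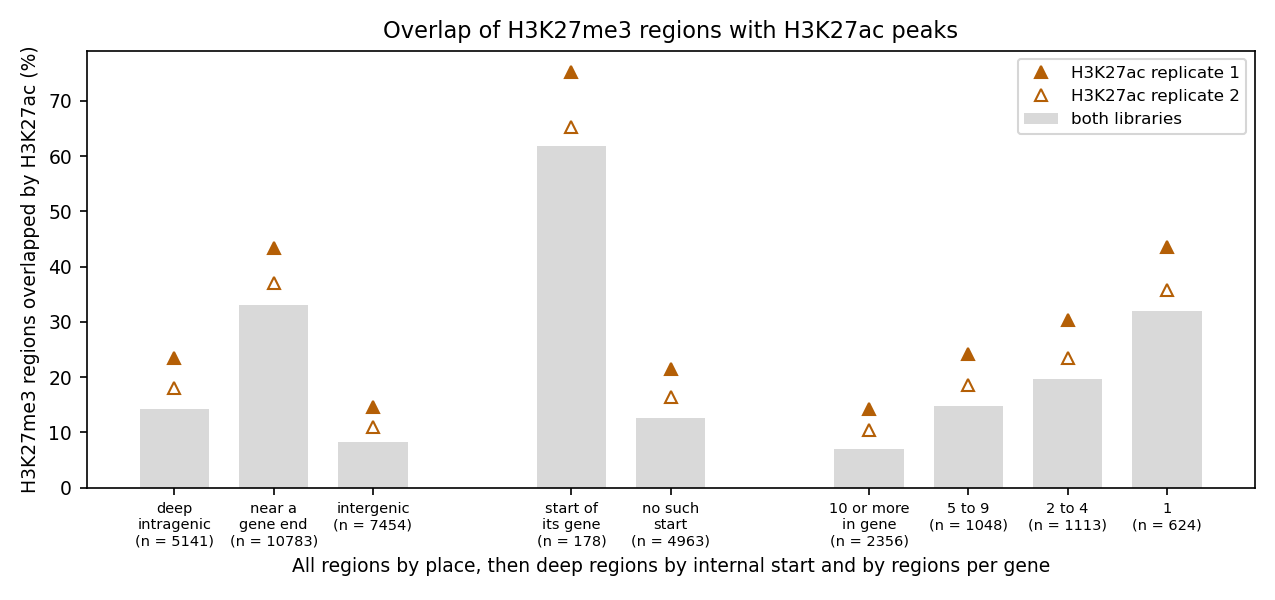
Share of H3K27me3 regions overlapped by H3K27ac (y axis, %) for all regions by place, then for deep regions by internal start and by the number of deep regions in their gene (x axis); triangles are the H3K27ac libraries and bars the overlap with both. Deep regions with an internal start of their gene stand highest, at 75.3% and 65.2% in replicates 1 and 2, and regions in genes with 10 or more stand at 14.3% and 10.5%.

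Overlap with H3K27ac was rarest in the genes with most regions. Counting each region with the host gene that holds most, H3K27ac of both libraries overlapped 7.00% of the 2356 regions in genes with 10 or more, 14.7% of those in genes with 5 to 9, 19.6% with 2 to 4 and 31.9% of the 624 regions that were alone in their gene. Replicates 1 and 2 taken alone had the same order, with 14.3% and 10.5% in the first class and 43.6% and 35.7% in the last. In the 24 highest-ranked genes the share was 5.43% (47 of 865). Regions in the first class were longer (median 1264 bp against 921 bp for lone regions) and held an internal start of their gene less often (1.47% against 13.7% of those whose gene has a start in the table), and the part of either in the overlap was not tested.

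Where both marks met, H3K27ac often covered most of the region. In the 736 regions the median share under H3K27ac of both libraries was 62.4%, and the median H3K27ac fold enrichment, taken as the highest of the peaks over a region, was 4.29 and 3.66. The H3K27me3 fold of the regions with H3K27ac was close to that of the others, 3.85 and 3.36 against 3.71 and 3.32. By length under H3K27ac the highest were Rai1, a nuclear regulator of transcription (5595 bp), and Smad3, the effector of TGF-beta signalling (5439 bp). Runx1, a regulator of blood cells, followed with 4629 bp, at an H3K27me3 fold of 5.91 and 4.94 and an H3K27ac fold of 14.3 and 9.38. In Shisal1 4391 bp, in Pax6 4131 bp and in the cytolinker gene Plec 3730 bp were covered. The region of 3660 bp in Msi1, an RNA-binding protein of neural progenitors, was covered over 100% of its length, with H3K27me3 at 4.43 and 3.10 and H3K27ac at 10.6 and 7.00. Seen from the other mark, 822 (8.42%) of the 9761 deep regions of H3K27ac found by the same rule were overlapped by H3K27me3 of both libraries. Deep H3K27ac regions were present in 684 hosts of deep H3K27me3 (51.4%, and 24.6% of the 2776 genes with deep H3K27ac), against 26.3% of the other 7961 genes, and hosts were longer (median 86.9 kb against 46.8 kb).

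A small set of deep regions held an internal start of their own gene, and these were longer, more enriched and more often acetylated than the rest. There were 178 such regions in 168 genes, which is 3.46% of all regions and 4.69% of the 3798 whose gene is in the RefSeq table of starts. Their median length was 1842 bp against 1096 bp for the other 4963, and their median H3K27me3 fold was 5.22 and 3.92 against 3.71 and 3.32. H3K27ac replicate 1 overlapped 75.3% of them against 21.5% of the others, and replicate 2 overlapped 65.2% against 16.3%. Both libraries overlapped 110 (61.8%) against 626 (12.6%). The share was higher with a start in each H3K27ac library taken alone. The other 4963 regions include those of genes not in the table, whose starts could not be seen. The part of region length in the overlap was not tested. Regions with only a start of a long noncoding RNA (66) were overlapped by both in 31.8%. With H3K27ac over at least 50% of the region the share was 37.6%, and with peaks at a −log10 q of 5 or more in all 4 lists it was 10.0% of the 20 regions left.

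Counted by start, 209 of the 1419 internal starts in deep sequence (14.7%) lay in a deep H3K27me3 region. Of these 209, H3K27ac of both libraries lay over 106 (50.7%), against 499 of the 1210 other starts (41.2%), with 42.6% for all 1419. A start is said to have H3K27me3 where it lay in a deep region, and H3K27ac where both libraries covered it. The 300-base windows at starts with both marks held a median of 21 CpG (middle range 15 to 31), those with H3K27me3 without H3K27ac 8 (5 to 17), those with H3K27ac without H3K27me3 11 (6 to 24) and those with neither 4 (2 to 6). At least 15 CpG were present in 77.4% of windows with both marks, 31.1% with H3K27me3 without H3K27ac, 44.5% with H3K27ac without H3K27me3 and 2.67% with neither, against 35.2% of all 31396 starts in the table. CpG content thus ran highest at starts with both marks by this definition and lowest at starts with neither. A start with neither can still lie under a peak of a single library, or under H3K27me3 that the rule left out. Likewise, H3K27me3 without H3K27ac does not mean a region free of acetylation. The region of Tmeff2 had an H3K27ac peak in replicate 1 only (fold 2.78). Those of Ptges and Crybg1 held 1718 and 1591 bp under H3K27ac of both libraries away from the start. The starts of a gene can share sequence, and no test was made over them.

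**Figure D5:**
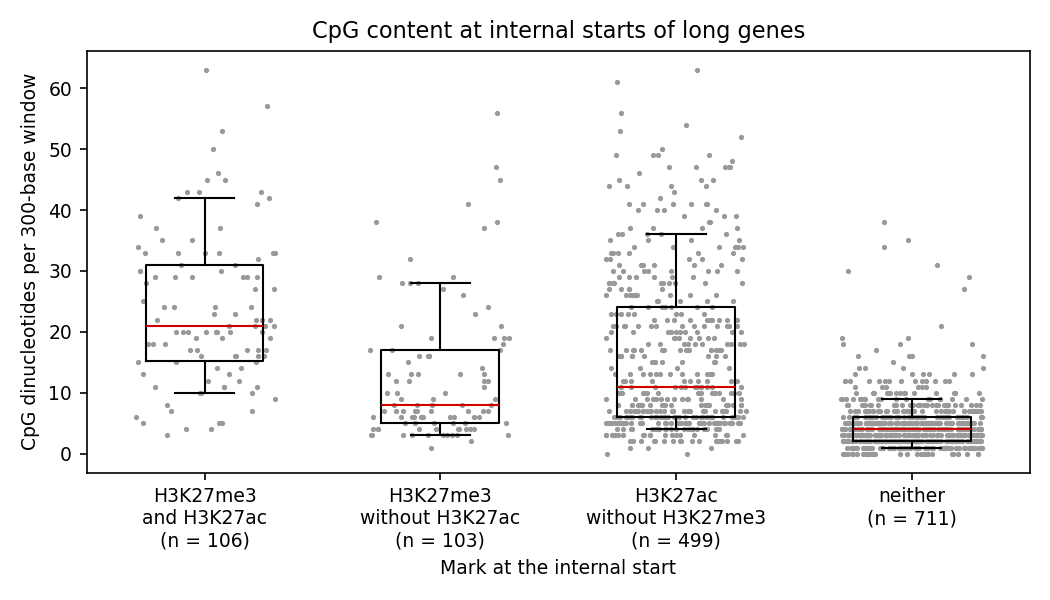
CpG dinucleotides in the 300 bases around each internal start (y axis) by the marks that covered the start (x axis); each point is a start, boxes give the median and quartiles, and whiskers the range from the 10th to the 90th percentile. Starts with both marks have a median of 21, starts with H3K27me3 without H3K27ac 8, and starts with neither 4. H3K27me3 here means that the start lay in a deep region, and H3K27ac that both libraries covered it.

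Among the 24 highest-ranked genes, such starts were seen in Atp2b2, Nav2, Asic2, Pde10a and Kcnip1. Of the 24, Csmd2, Sorcs2, Myo18b, Cdh4, Skap1, Phactr3, Zfp469, Celf4, Cdh13 and Xkr6 are absent from the RefSeq table of starts. No internal start could be seen in these genes. The start in Nav2, 287 kb from the 5′ end, lay in a region of 4368 bp with H3K27me3 at 5.89 and 4.50 and H3K27ac at 4.64 and 3.88. In Asic2 the start lay 815 kb inside the gene, with H3K27me3 at 10.1 and 5.02 and H3K27ac at 3.98 and 3.38. Both genes had H3K27me3 at an end, and neither had H3K27ac of both libraries at its ends. Pde10a had a pair of starts in regions, 1 with both marks (H3K27me3 at 12.9 and 6.46, H3K27ac at 3.56 and 3.06) and 1 without H3K27ac (3.73 and 3.66). The start of Atp2b2, in a region of 14150 bp at 5.93 and 4.36, and both starts of Kcnip1, at 6.40 and 4.61 and at 7.23 and 4.23, had no H3K27ac peak. Outside the top genes, the calcium channel gene Cacna1c had a start with 57 CpG, H3K27me3 at 6.40 and 5.10 and H3K27ac at 4.43 and 3.75. In Robo2, an axon guidance receptor of olfactory neurons, the only region was 814 bp long, lay 1036 kb from the 5′ end at an internal start, and was wholly covered by H3K27ac (H3K27me3 4.33 and 3.33, H3K27ac 7.62 and 5.33). The nuclear receptor gene Esrrb had a start with H3K27me3 at 8.40 and 6.06 and no H3K27ac peak in the region.

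Most genes with deep H3K27me3 also carried it at an end. H3K27me3 of both libraries lay within 1 kb of a gene end in 1026 host genes (77.1%), against 1983 of the other 7961 (24.9%), with 32.4% for all 9292. Each library could meet this at either end of the gene, so libraries and marks need not share an end. H3K27me3 replicate 1 had 86.8% of hosts against 45.2% of the others, and replicate 2 had 79.6% against 27.6%. H3K27ac ran the other way and lay at an end in 743 hosts (55.8%), against 5986 of the others (75.2%), with 72.4% for all. H3K27ac replicate 1 had 67.2% against 78.7% and replicate 2 had 58.4% against 76.6%. Both marks were at the ends of 45.1% of hosts against 18.1% of the others, H3K27me3 without H3K27ac at 32.0% against 6.83%, H3K27ac without H3K27me3 at 10.7% against 57.1%, and neither at 12.2% against 18.0%. The share of hosts with H3K27me3 at an end was 92.9% in genes with 10 or more regions, 90.1% with 5 to 9, 81.9% with 2 to 4 and 67.4% with 1. Of the 24 highest-ranked genes 23 had H3K27me3 at an end and 10 had H3K27ac, and only Camta1 had H3K27ac without H3K27me3. The gene-end share comes from the same H3K27me3 lists that chose the regions, so it is a description, and it was 31.5% of the 54 host genes left at a −log10 q of 5 or more.

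Lists of gene families set these genes beside their pathways, with 14.3% of all genes long enough as the background. Ion channel genes were hosts in 33 of 51 cases (64.7%), with Kcnip1, Cacna2d2 (23 regions), Cacna1c (22) and Cacna1a (21) in front. Cacna2d1, Cacnb2 and Cacnb4, subunits of the same channel family, had no deep region, and their deep sequence under H3K27me3 came to 0.212 and 0 kb, 0 and 0.268 kb, and 2.43 and 2.82 kb in replicates 1 and 2. Neurotransmitter receptor genes were hosts in 15 of 41 cases (36.6%), with Grik4, Grik3, Gabbr2 and Grid1 (21) in front and none in Gria2, Gria4 or Grik1. Synaptic adhesion genes were hosts in 22 of 46 cases (47.8%), but regions took up only 0.419% of their deep sequence, whose median was 549 kb, with Sdk2 and Ntm (16 each), Nrxn2 (10) and Kirrel3 (8) in front and none in Cntnap4, Cntnap5a or Cntnap5b. For axon guidance the count was 12 of 39 (30.8%), with 22 regions in Slit3, 11 each in Slit1 and Ephb1 and 7 in Sema5b, ligands and a receptor that steer axons, and none in the netrin receptor genes Dcc, Neo1 and Unc5a. Unc5a was left out by the rule alone, since both H3K27me3 libraries covered 39.9 and 40.8 of its 40.8 kb of deep sequence in regions that ran past the 10 kb limit.

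Regulators and matrix genes were hosts as well. A list of developmental transcription factors, limited to those in long genes, had hosts in 37 of 69 cases (53.6%). Its median deep sequence was 167 kb, and 24% of all genes with 100 to 200 kb were hosts. In front were Prdm16, Pax5, the muscle stem cell regulator Pax7 (17 regions) and Esrrb (15). Of the 37 hosts, 25 had a region under H3K27ac of both libraries, as did 35.9% of all 1331 hosts. Trp63 and Ebf2 had no deep region. Collagen and other matrix genes were hosts in 23 of 53 cases (43.4%), with Hmcn2 (24), Col13a1 (18), Adamts2 (16) and Col5a1 (15) in front and none in Col1a2, Col3a1 or Col4a3. Growth factors and receptor kinases came to 17 of 52 (32.7%), with Nrg2 (18), Alk (9), Ntrk3 (8) and Flt1 (6), and none in Erbb4, Egfr or Nrg3. Of 32 genes known for internal promoters 24 were hosts (75%), among them Prdm16, Ank1 (14), Nrxn2 and Trp73 (9), and Trp63, Mitf and Pde4b were not. In Trp73 1 of the 9 regions held an internal start of the gene, and in Prdm16 none did. Ank1 and Nrxn2 have no entry among the starts used here. The median deep sequence of this list was 242 kb, and 28.2% of all genes with 200 to 400 kb were hosts. All 8 lists exceeded the background. These lists and the cell type lists below were written with earlier results of these data known, so their counts are a description. The median deep sequence of the 8 lists also ran from 87.5 kb (growth factors and kinases) to 549 kb, against 25.4 kb in genes without a region. The part of length was not tested.

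Each GBC gene with deep H3K27me3 had at least 1 region that met H3K27ac, as did hosts in the lists of some other cell types given below. Of 7 listed GBC and progenitor genes 4 were hosts (57.1%, against 14.3% of all genes long enough), and each had a region under H3K27ac of both libraries, as did 35.9% of all hosts. In Kit this overlap was 28 bp. Ebf3, a regulator of neuronal differentiation in the olfactory epithelium, had 8 regions, of which 7 were under H3K27ac of both. The strongest, at chr7:137309230-137310820, stood at 11.1 and 4.90 for H3K27me3 and at 12.8 and 9.56 for H3K27ac. Its relative Ebf1 had 2 regions, of which 1 was under H3K27ac of both libraries. Ebf2 had none, with 5.38 and 4.34 kb of deep sequence under H3K27me3 against 61.9 and 49.1 kb under H3K27ac. The region of Kit, at chr5:75591523-75592277, was 755 bp long and weakly enriched, at an H3K27me3 fold of 3.39 and 3.09 and an H3K27ac fold of 3.07 and 2.95. In Lhx2 the whole 10.5 kb of deep sequence lay under H3K27me3 of both libraries, in a region that ran past the 10 kb limit and so was not counted. H3K27ac covered 10.5 and 8.86 kb of the same sequence in replicates 1 and 2.

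Of the olfactory neuron genes 3 of 12 were hosts (25%), namely Gnal, Ano2 and Robo2, and each had a region with H3K27ac of both libraries. Gnal, which encodes a G protein subunit of odorant signalling, had 2 regions, and the longer had an H3K27me3 fold of 7.91 and 4.60 beside an H3K27ac fold of 12.2 and 5.07. Gap43, Stmn2 and Dpysl3, genes of growing axons, had none. The lists of other cell types are short, and their counts are to be read beside the 14.3% of all genes that were hosts. That share rose with deep sequence, from 9.32% of genes with under 50 kb to 39.9% above 400 kb. Median deep sequence ran from 9.89 kb (ensheathing glia) to 297 kb (respiratory cilia), with 99.7 kb for GBC genes and 97.2 kb for olfactory neuron genes. The part of length in the counts of any cell type list was not tested. Horizontal basal cell genes had 1 host of 8 (Col17a1, with a region of 679 bp at 2.99 and 2.93), and Trp63, their master regulator, had 0.414 and 0.728 kb of deep sequence under H3K27me3 and no region. Microvillar and tuft cell genes had 1 host of 8 (12.5%), Chat, which makes acetylcholine, with 7 regions. Respiratory cilia genes had 1 of 7 (Hydin, 21 regions, with none in Dnah5, Dnah9 or Dnah11), stroma and endothelium 3 of 10 (Erg with 10, Flt1 and Pdgfrb), and leukocyte genes 6 of 9 (66.7%), with Runx1 (7), Ets1 (3), Runx3 (2) and Itgam (1). Sustentacular and Bowman's gland genes (0 of 3), ensheathing glia genes (0 of 3) and mast cell and melanocyte genes (0 of 5) had no deep region. The median deep sequence of these lists was 48.3, 9.89 and 19.5 kb. Runx1, Ets1 and Runx3 are also transcription factors outside blood, so their count does not stand for leukocytes alone. All 3 stroma and endothelium hosts and 3 of the 6 leukocyte hosts had a region under H3K27ac of both libraries. The hosts of the horizontal basal cell, microvillar and tuft cell, and respiratory cilia lists had no such region.

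Noncoding genes nested in the deep sequence were also touched. Of 1787 nested long noncoding RNA genes 217 (12.1%) were overlapped by a region, and they made up 6.21% of the bases of the regions against 3.23% of all deep sequence. Of 209 nested small nucleolar RNA genes 1 was overlapped, and of 1345 nested pseudogenes 21 (1.56%). Regions took up 0.470% and 0.919% of the bases of these genes, against 1.23% of all deep sequence. Of 337 nested microRNA genes 10 (2.97%) were overlapped, by 8 regions, which took up 2.66% of the bases of nested microRNA genes. Those in Arpp21, Smoc1, Grid1, Pax2 and Ryr1, and 4 in 2 regions of the imprinted gene Rtl1, were overlapped by regions without H3K27ac peaks, with the whole hairpin inside except for Mir3070a (64 of 89 bases). Mir1904 in Pde4d touched a region with H3K27ac of both libraries with only 2 of its 80 bases. Mature sequences from RefSeq are shown for 5 of the others, with the seed (bases 2 to 8) in capitals. Mir3070a and Mir3070b, both in Rtl1, give the same miR-3070-5p and so share its seed, and no other seed was shared among the sequences shown.
mmu-miR-128-3p (Arpp21): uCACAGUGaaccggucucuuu
mmu-miR-346-5p (Grid1): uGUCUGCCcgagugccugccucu
mmu-miR-3067-5p (Smoc1): aGUUCUCAggcccgcuguggugu
mmu-miR-3070-5p (Rtl1): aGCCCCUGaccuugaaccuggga
mmu-miR-6405 (Pax2): gUGGGAAGcagugggaagcagug

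The region over Mir128-2, a microRNA of neurons, was 690 bp long at chr9:112118135-112118824, with H3K27me3 at 4.31 and 3.79. The region over Mir346 in Grid1 was longer, 3725 bp at chr14:34894330-34898054 (4.20 and 4.07), and the one over Mir6405 in Pax2, a kidney and midbrain regulator, was the most enriched of these 8, at 6.45 and 5.53 over 1524 bp. The regions in Rtl1 were the weakest, at 2.99 and 3.06 and at 2.99 and 2.81. A host gene's own H3K27me3 and that of a nested gene cannot be told apart in these lists.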

How the data were processed

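Reads were processed with fastp, Bowtie, Picard and MACS2 against GRCm38 (mm10), per the submitters' processing notes. Versions and parameters are not given in the sources used here. Each of the 4 immunoprecipitated libraries has a peak list by the authors, with 9 columns in the broad-peak layout. For each peak the authors deposited a fold enrichment (a linear ratio over background), a −log10 p, a −log10 q and a score that follows the −log10 q. A fold or −log10 q is the authors' own value for the peak and was used only to describe, rank or filter peaks within a list. Read totals are not in these lists, so no interval or detection limit is given.

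Groups and replicate numbers came from the sample titles, and replicates were taken as separate pools of mice. Genes came from the RefSeq table of GRCm38.p6, with 20665 protein-coding genes on chromosomes 1 to 19, and starts, strands and sequences from RefSeq tables of the same assembly, which hold 7348 of the 9292 genes long enough (79.1%). H3K27me3 of both libraries was intersected, and a region had to lie wholly beyond the limit. Overlap with both H3K27ac libraries meant at least 1 base covered in both. A gene carried a mark at an end where each library had a peak within 1 kb of either end, not always the same end. An internal start was a RefSeq start in the sequence of its own gene more than 10 kb from every protein-coding gene end. CpG were counted in windows of 250 bases before and 50 after the start. The interval steps were tested on simulated lists with Python 3.11.15 and numpy 2.4.6.

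No test was made over regions, starts or genes, which are not replicates. Named genes were the first 24 by number of regions and their length, without predicted genes, up to 4 hosts and 3 others from each of 18 lists, the genes of the 8 longest, 6 most enriched and 8 most acetylated regions, and hosts of microRNAs. The genes of the densest regions, those with internal starts, and the examples said to be so chosen were picked after their values were seen. The members and the lists were chosen with earlier results of these data known. Alternatives changed the −log10 q, length, distance, gap, gene ends, overlap and libraries.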

Additional observations from a re-analysis of the deposited data

How the results depend on the processing

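The region and gene counts depended on the threshold and on requiring both libraries, and the shares also fell when −log10 q had to reach 5. Counts and shares are judged below by different limits, and each SD comes from only 2 libraries. How far counts and shares moved therefore cannot be compared. The number of deep regions (5141) was 1582 when only peaks with a −log10 q of 2 or more were kept, 67 with 5 or more, 8036 with regions of at least 200 bp and 2910 with at least 1000 bp, and 9852 to 12541 with either H3K27me3 replicate left out. The number of host genes (1331) was 648 and 54 at these −log10 q limits, 855 beyond 20 kb from gene ends, and 2296 to 2847 with a replicate left out. The share of deep regions under H3K27ac of both libraries (14.3%) was 4.48% when −log10 q had to reach 5, 8.34% when at least 50% of the region had to be covered, and 12.5% to 23.4% with any replicate of either mark left out. The share of hosts with H3K27me3 at a gene end (77.1%) was 63.6% and 31.5% when −log10 q had to reach 2 and 5, 84.1% with windows of 2.5 kb, and 70.1% to 78.2% with a replicate left out. For regions with an internal start the H3K27ac share (61.8%) was 43.5% and 10.0% (of 20 regions) at these limits, 37.6% with at least 50% covered, and 59.8% to 75.3% with a replicate left out. Fewer peaks pass a higher −log10 q by construction, and otherwise the cause was not tested. Each share moved by less than 1 SD between replicates, and each count by less than 1.5 times, under 6 of 12 alternatives for regions, 7 of 12 for genes, 11 of 15 for the H3K27ac share, 9 of 13 for the gene-end share and 11 of 15 for regions with a start. Cutting regions at the limit (5453 regions), keeping genes with a curated transcript (5134) and all alternatives for regions with a start were chosen after seeing the data. No paired analysis was possible because no result comes from a test, and by their titles replicate 1 of H3K27me3 and replicate 2 of H3K27ac had a common input, so equal numbers are not pairs. Depth is unknown, so a missing peak does not show a missing mark.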
